A study of Cricetulus griseus with 20 samples.

Results

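The step described here runs from D1 to D3 of adipogenic differentiation in cells that were under hypoxia at both timepoints. It rests on the 4 RNA-seq libraries with the titles Hypoxia D3 (replicates 1 and 2) and Hypoxia D1 (replicates 1 and 2), of 20 libraries in all. The cells were primary preadipocytes of the Chinese hamster (Cricetulus griseus) from inguinal white adipose tissue (iWAT) of females aged 6 weeks, and the tissue of all animals was pooled. Hypoxia D3 cells had received the adipogenic cocktail of dexamethasone, insulin and IBMX for 2 days in normal air and then insulin alone for a day under 1% O2. Hypoxia D1 cells had received the complete cocktail for a day, all of it under 1% O2. Both hypoxic groups thus spent their last 24 h in 1% O2. The day of differentiation, the removal of dexamethasone and IBMX, and the stage at which low oxygen began changed together between them and cannot be told apart. The normoxic step, Normoxia D3 against Normoxia D1 (2 libraries each, conventional incubator), had the same media changes without low oxygen, and it is used below to show where the hypoxic step differed.

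Adipogenesis is the conversion of fibroblast-like precursors into fat-storing cells. Dexamethasone acts through the glucocorticoid receptor and IBMX raises cAMP by inhibiting phosphodiesterases, and together with insulin they switch on a cascade of transcription factors that ends in PPARγ (Pparg) and C/EBPα, which in turn drive the genes of lipid uptake and storage. In rodent cell lines the confluent precursors re-enter the cell cycle after the cocktail is added, a phase called mitotic clonal expansion, and leave it again before they fill with lipid. Low oxygen stabilizes hypoxia-inducible factors (HIFs), which raise the genes of glycolysis, oxygen sensing and collagen modification, and hypoxia is known to hold back PPARγ in preadipocytes.

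The values are TPM, a relative abundance that is corrected for transcript length and sums to the same total in each library, for 10318 mRNAs and 4295 lncRNAs. The listed features held 29.2% to 33.4% of all TPM in the 4 hypoxic libraries, and the libraries of a group had a Pearson r of at least 0.9961 on log2(TPM + 1) in hypoxia, against 0.9717 to 0.9737 between Hypoxia D3 and Hypoxia D1 libraries. Of the 4, Hypoxia D1 replicate 1 had the smallest listed sum and Hypoxia D1 replicate 2 the largest, 278773 and 318673 TPM of mRNA. Read counts per gene are not in these tables, so the depth behind a low TPM is unknown. A change below is the difference of group means of log2(TPM + 1) minus its median over all mRNAs, which was -0.05, and is called relative log2. A standard error (SE) and an adjusted p come from limma with Benjamini-Hochberg adjustment over all 10318 mRNAs, in 1 fit of all 20 libraries. The sources do not say whether the 2 libraries of a group came from separate cultures, so a p-value here covers no more than how far such libraries lie apart, which may be technical. Only 3858 of the mRNAs have a gene symbol in the sources used here, mostly genes that the study called or listed, and the others stay unnamed.

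A HIF target was higher in the hypoxic than in the normoxic libraries of both timepoints, a difference that was not tested. Ankrd37, a direct HIF target, had 13.4 and 14.5 TPM in Hypoxia D3 and 5.38 and 5.84 TPM in Hypoxia D1, against 2.601 and 2.92 TPM in Normoxia D3 and 0.729 and 0.861 TPM in Normoxia D1. Every hypoxic library was thus above every normoxic one. Markers of the precursor were present: Pdgfra had 15.005 and 13.8 TPM in Hypoxia D3 and 9.19 and 10.4 TPM in Hypoxia D1, and 7 of 27 genes on a list of preadipocyte and fibroblast markers could be found by symbol, of which 4 rose and 0 fell. Other cell types could be checked only in part. Of 20 macrophage markers only Fcer1g had a symbol (2.92 and 3.10 TPM in Hypoxia D3, against 4.88 and 6.69 TPM in Hypoxia D1), and of 17 endothelial markers only Pecam1 (9.03 and 7.78 TPM, against 6.01 and 7.76 TPM). Cspg4, the only one of 12 pericyte markers with a symbol, had 14.1 and 12.9 TPM in Hypoxia D3 and 9.92 and 9.78 TPM in Hypoxia D1. Of 19 epithelial and mesothelial markers 5 had a symbol, and they summed to 19.5 and 18.4 TPM in Hypoxia D3, against 6.54 and 7.86 TPM in Hypoxia D1. Krt7, a keratin of simple epithelia, led them with 11.1 and 10.5 TPM in Hypoxia D3 and 2.00 and 2.50 TPM in Hypoxia D1 (relative log2 1.91, SE 0.14, adjusted p = 6.1e-09 in limma), and 4 of the 5 rose. The part of such cells in the results was not tested, and in bulk samples fewer cells of a type and less RNA per cell cannot be told apart.

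DE (differentially expressed) mRNAs were those with a relative log2 beyond 1 in either direction and an adjusted p under 0.05. In the hypoxic step 202 mRNAs (1.96% of 10318) were DE and higher at D3, and 77 (0.746%) were DE and lower. By the adjusted p alone, which is the rule used below for members of gene lists ("rose", "fell"), 1708 mRNAs (16.6%) rose and 1317 (12.8%) fell. The count of falls was 807, 733 and 805 without Hypoxia D3 replicate 1, Hypoxia D3 replicate 2 and Hypoxia D1 replicate 1, and quantile normalization gave 2356 and 2021. Among the 3858 mRNAs with a symbol, from which all lists are drawn, these shares were 20.6% and 15.6%. A list member counts as measured below only if it has such a symbol. Other members may be among the unnamed mRNAs, so a list count may not cover the whole list. The libraries of D3 and D1 did not overlap for any of the 279 DE mRNAs, and this was also so for 6618 of all 10318.

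Among the named mRNAs with the largest rise, Slc14a1, a urea transporter, had 36.8 and 33.1 TPM in Hypoxia D3, against 2.74 and 2.59 TPM in Hypoxia D1 (relative log2 3.34, SE 0.15, adjusted p = 2.6e-11, limma), which is 10.1-fold on this scale, where the pseudocount of 1 TPM understates the change of low genes. Il1rl1, the receptor for interleukin 33, had 18.6 and 16.9 TPM in Hypoxia D3, against 1.07 and 1.55 TPM in Hypoxia D1 (relative log2 3.07, SE 0.25). Il1r1, the signalling receptor for interleukin 1, had 33.2 and 26.8 TPM in Hypoxia D3, against 3.35 and 4.22 TPM in Hypoxia D1 (relative log2 2.74, SE 0.17). On the same scale, relative to the median change, these 2 receptors of the same family rose 8.40-fold and 6.68-fold. In the undifferentiated Hypoxia D0 cells the means were 8.45 TPM for Slc14a1, 13.8 TPM for Il1rl1 and 8.05 TPM for Il1r1, so of D0, D1 and D3 the 3 genes were lowest at D1. Akr1c19, an aldo-keto reductase, had 18.9 and 11.5 TPM in Hypoxia D3 and 1.15 and 1.32 TPM in Hypoxia D1, and its reads may be shared with close relatives of the same family. Fxyd1, a regulator of the sodium pump, had 89.5 and 54.4 TPM in Hypoxia D3, against 12.2 and 14.8 TPM in Hypoxia D1, so its D3 libraries differed from each other more than those of most top genes. Ephx1, the microsomal epoxide hydrolase, had 88.3 and 70.4 TPM in Hypoxia D3 and 18.4 and 18.02 TPM in Hypoxia D1. Cd109, a membrane-anchored co-receptor that dampens TGF-β signalling, the membrane protein Stom and the calcium-binding S100a1 rose by a relative log2 of 2.24, 2.09 and 1.95.

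The named mRNAs with the largest fall were high in D1 cells, which still had the cocktail. Thbd, the thrombin receptor thrombomodulin, had 1.79 and 1.58 TPM in Hypoxia D3, against 28.6 and 32.0 TPM in Hypoxia D1 (relative log2 -3.50, SE 0.17, adjusted p = 5.4e-11, limma). Trim13, a ubiquitin ligase of the endoplasmic reticulum, had 4.51 and 5.04 TPM in Hypoxia D3, against 46.8 and 60.3 TPM in Hypoxia D1 (relative log2 -3.18, SE 0.16). Rgs2, which ends G protein signalling and is itself induced by cAMP, had 3.91 and 4.02 TPM in Hypoxia D3, against 26.6 and 30.9 TPM in Hypoxia D1 (relative log2 -2.53, SE 0.14). All 3 genes were also lower in Hypoxia D0 cells, with means of 6.75 TPM for Thbd, 5.57 TPM for Trim13 and 0.720 TPM for Rgs2, so of D0, D1 and D3 they were highest at D1. Igfbp4, which binds insulin-like growth factors, was the most abundant of the group, with 121 and 101 TPM in Hypoxia D3 and 546 and 599 TPM in Hypoxia D1. Gclc, the catalytic subunit of the enzyme that starts glutathione synthesis, had 26.9 and 23.1 TPM in Hypoxia D3, against 120 and 122 TPM in Hypoxia D1. Star, which moves cholesterol into mitochondria for steroid synthesis, had 2.35 and 1.66 TPM in Hypoxia D3, against 12.3 and 13.95 TPM in Hypoxia D1. Further falls were those of the adaptor subunit Ap1s3 (relative log2 -2.41), the kinase Dclk1 (-1.85), the focal adhesion scaffold Nedd9 (-1.69) and the ribonucleotide reductase subunit Rrm2 (-1.62).

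**Figure D1:**
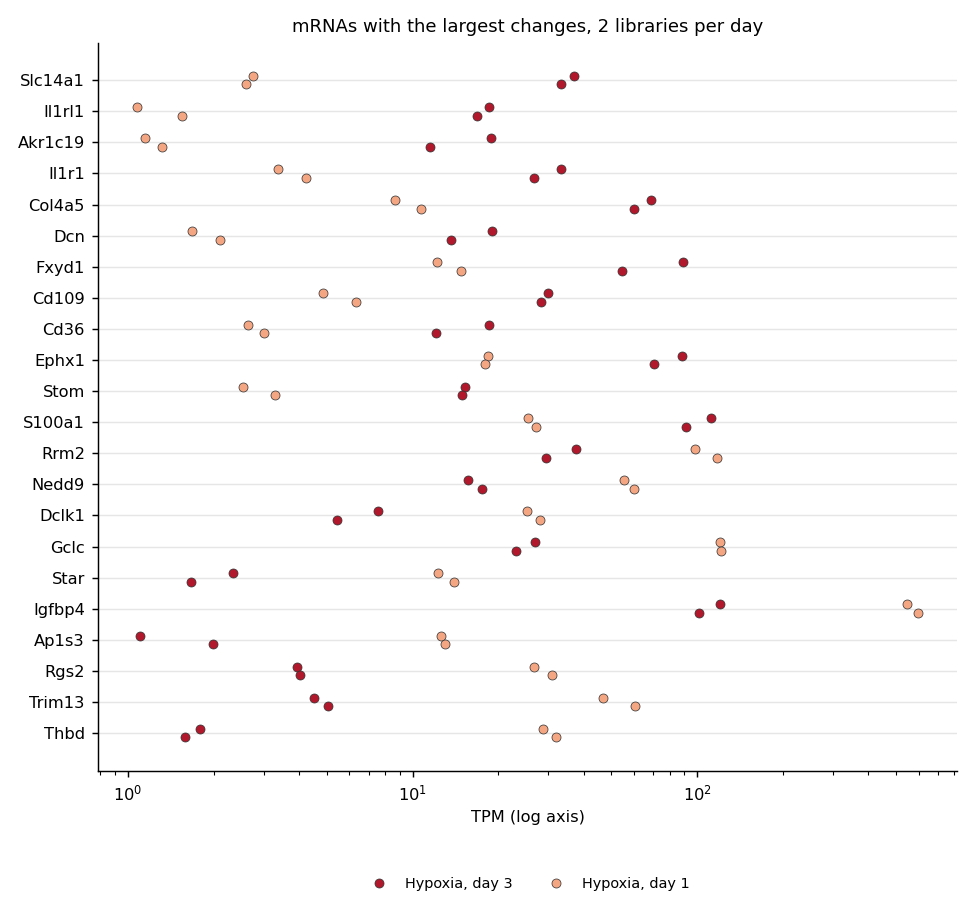
TPM on a log axis in each of the 2 Hypoxia D3 libraries (dark) and the 2 Hypoxia D1 libraries (light) for 12 named mRNAs with the largest rise (upper rows) and 10 of those with the largest fall (lower rows). The libraries of D3 and D1 are apart in every row, by the rule that chose the genes, and the pairs of one day lie close together, least so for Fxyd1, Ap1s3 and Akr1c19.

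Genes on the lists of cAMP-induced and glucocorticoid-induced genes moved in the hypoxic step, and the cAMP list moved mostly in one direction. Whether the removal of dexamethasone and IBMX moved them was not tested. Of 21 measured genes on a list of cAMP-induced genes, 13 fell and 3 rose, with a median relative log2 of -0.60 against 0.00 over all mRNAs. After Rgs2 the largest falls were those of Areg, an EGF receptor ligand, with 7.19 and 8.85 TPM in Hypoxia D3 and 24.6 and 28.1 TPM in Hypoxia D1 (relative log2 -1.56, SE 0.19), and of Pde4d, a phosphodiesterase that degrades cAMP, with 3.13 and 2.21 TPM in Hypoxia D3 and 7.02 and 9.02 TPM in Hypoxia D1. The kinase Sik1 and the phosphatase Dusp1, both early targets of cAMP, stood at relative log2 -1.24 and -1.21. The 3 members that rose were the stress-responsive factor Atf3 (1.04), the coactivator Ppargc1a (0.86) and the HIF competitor Cited2 (1.03). Glucocorticoid-induced genes were split: 9 of 18 rose (50%) and 5 fell (27.8%), against 20.6% and 15.6% of the named mRNAs, median 0.37. Il1r1 and Dcn, among the largest rises of all, are on this list. Tsc22d3, a classic target of the receptor, had 113 and 94.7 TPM in Hypoxia D3, against 27.2 and 31.8 TPM in Hypoxia D1 (relative log2 1.83, SE 0.15), and Klf9 had 12.6 and 12.3 TPM, against 3.76 and 5.42 TPM. Dusp1, Rgs2, Sgk1, Errfi1 and Cebpd fell, and the first 2 of these are also on the cAMP list. Tsc22d3 and Klf9 were thus higher in Hypoxia D3 cells, whose medium of the last day held no dexamethasone.

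Genes of lipid uptake and storage rose. Of 17 measured genes of lipid storage and uptake, 10 rose and 0 fell, with a median relative log2 of 0.60; with each library centred on its own median 11 rose and 3 fell, and with quantile normalization 11 and 4. Cd36, the fatty acid transporter, had 18.6 and 12.1 TPM in Hypoxia D3, against 2.64 and 3.002 TPM in Hypoxia D1 (relative log2 2.12, SE 0.19, adjusted p = 1.4e-07, limma). Fabp4, the fatty acid binding protein of adipocytes, had 132 and 107 TPM in Hypoxia D3, against 37.5 and 47.8 TPM in Hypoxia D1 (relative log2 1.51, SE 0.15). The lipase Lpl, which frees fatty acids from lipoproteins, and the lipid droplet protein Plin4 were low but higher at D3, at 2.80 and 1.66 TPM in Hypoxia D3 against 0.620 and 0.995 TPM in Hypoxia D1 for Lpl, and at 2.87 and 2.13 TPM against 0.874 and 0.908 TPM for Plin4. Plin2, the droplet coat protein of cells that begin to store lipid, had 179 and 165 TPM in Hypoxia D3, against 207 and 219 TPM in Hypoxia D1 (relative log2 -0.26, SE 0.10, adjusted p = 0.065). The D3 libraries of Plin2 were both below those of D1, and the adjusted p was 0.030 without centring, 0.0088 with quantile normalization and 0.011 with each library centred on its own median.

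Of 15 measured transcription factors of adipogenesis, 3 rose (20%) and 2 fell (13.3%), against 20.6% and 15.6% of the named mRNAs, with a median relative log2 of -0.07. Pparg had 44.1 and 35.4 TPM in Hypoxia D3 and 37.4 and 42.4 TPM in Hypoxia D1 (relative log2 0.04, SE 0.15, adjusted p = 0.88), and the libraries of both days overlapped. Stat5b, which acts upstream of Pparg, had 6.39 and 6.00 TPM in Hypoxia D3, against 3.34 and 4.07 TPM in Hypoxia D1 (relative log2 0.66, SE 0.12), and the glucocorticoid receptor Nr3c1 had 19.3 and 17.4 TPM, against 13.1 and 14.3 TPM (relative log2 0.44). Cebpd, one of the first factors that the cocktail induces, had 0.803 and 0.836 TPM in Hypoxia D3, against 1.62 and 1.87 TPM in Hypoxia D1 (relative log2 -0.54). Without Hypoxia D3 replicate 1 only 1 factor rose and 1 fell.

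Of 17 listed genes of fatty acid synthesis only 5 had a symbol, and these were lower at D3. All 5 measured genes of fatty acid synthesis fell, with a median relative log2 of -0.45; 2 fell without Hypoxia D3 replicate 1 and 3 without Hypoxia D1 replicate 1. Acly, which makes cytosolic acetyl-CoA from citrate, had 118 and 120 TPM in Hypoxia D3, against 368 and 375 TPM in Hypoxia D1 (relative log2 -1.58, SE 0.13, adjusted p = 2.3e-08, limma). Fasn, the fatty acid synthase, had 5.68 and 6.02 TPM in Hypoxia D3 and 17.6 and 17.1 TPM in Hypoxia D1 (relative log2 -1.37, SE 0.13). Acaca, which makes malonyl-CoA for Fasn, had 15.7 TPM in both Hypoxia D3 libraries, against 20.5 and 23.5 TPM in Hypoxia D1. Of 16 genes of cholesterol synthesis and its control, 4 fell (25%), 1 rose (6.25%) and 11 did not pass the test, median -0.11. Of the named mRNAs 15.6% fell and 20.6% rose. Hsd17b7, a reductase of the pathway, had 5.50 and 5.76 TPM in Hypoxia D3, against 14.4 and 14.1 TPM in Hypoxia D1 (relative log2 -1.15). The gene that rose was Insig1, which holds the pathway's activator SREBP back in the endoplasmic reticulum, with 65.6 and 80.6 TPM in Hypoxia D3 and 21.2 and 27.8 TPM in Hypoxia D1 (relative log2 1.59, SE 0.16). Without Hypoxia D3 replicate 1 the cholesterol list had 2 members that rose and 2 that fell, without either Hypoxia D1 library 2 fell, and with each library centred on its own median 3 rose.

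Of 59 listed DNA replication genes 31 had a symbol, and most of these fell. Of 31, 20 fell and 0 rose, with a median relative log2 of -0.50. Rrm2, which makes deoxynucleotides, had 37.6 and 29.4 TPM in Hypoxia D3, against 98.6 and 117 TPM in Hypoxia D1 (relative log2 -1.62, SE 0.14, adjusted p = 5.1e-08, limma). Top2a, the topoisomerase of dividing cells, had 91.4 and 84.1 TPM in Hypoxia D3 and 173 and 207 TPM in Hypoxia D1 (relative log2 -1.05, SE 0.15). The origin licensing genes Cdc6, Orc1 and Mcm5 stood at relative log2 -0.91, -0.85 and -0.83, and the maintenance methylase Dnmt1 at -0.83. In a list of 46 mitosis genes 19 fell, 0 rose and 27 did not pass the test, median -0.34. Its largest fall was that of Cenpw, a centromere protein, with 43.3 and 41.3 TPM in Hypoxia D3, against 83.4 and 91.7 TPM in Hypoxia D1 (relative log2 -0.98, SE 0.13), followed by the kinesin Kif2c at -0.68. The mitosis count depended on the fit: 32 fell with each library centred on its own median, 11 without Hypoxia D3 replicate 1, 7 without Hypoxia D3 replicate 2 and 10 without Hypoxia D1 replicate 2, while the median stayed between -0.35 and -0.30 in these fits. Among 12 cyclins of G1 and CDK inhibitors 4 rose and 1 fell, and 2 rose without either Hypoxia D3 library or without Hypoxia D1 replicate 1. In the main fit 33.3% of the 12 rose and 8.33% fell, against 20.6% and 15.6% of the named mRNAs. Ccnd1 had 10.6 and 9.66 TPM in Hypoxia D3, against 4.52 and 5.10 TPM in Hypoxia D1 (relative log2 0.99). Ccnd2 had 9.33 and 9.93 TPM in Hypoxia D3, against 4.97 and 4.68 TPM in Hypoxia D1 (0.91). Both D-type cyclins, which bring cells into the cycle, were thus higher when the replication genes were lower.

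Matrix genes gave the largest median of all lists that hold more than 5 named genes. Of 54 listed genes of the interstitial matrix 21 had a symbol, of which 17 rose and 1 fell, with a median relative log2 of 0.91. Dcn, the collagen-binding proteoglycan decorin, had 19.0 and 13.6 TPM in Hypoxia D3, against 1.67 and 2.11 TPM in Hypoxia D1 (relative log2 2.62, SE 0.18, adjusted p = 1.9e-09, limma). Loxl3, which cross-links collagen, had 32.1 and 28.8 TPM in Hypoxia D3 and 8.35 and 9.52 TPM in Hypoxia D1 (relative log2 1.71, SE 0.13). The collagens Col16a1 and Col8a1 rose by 1.64 and 1.66, and Spon2, a secreted matrix protein, had 2.32 and 1.87 TPM in Hypoxia D3 and 0 and 0.0177 TPM in Hypoxia D1. The exception was Has2, the hyaluronan synthase, with 0.636 and 0.590 TPM in Hypoxia D3, against 5.27 and 6.22 TPM in Hypoxia D1 (relative log2 -2.01, SE 0.13). Of 13 basement membrane genes, 8 rose and 0 fell, median 0.61. Col4a5, a type IV collagen chain, had 68.7 and 60.0 TPM in Hypoxia D3, against 8.69 and 10.7 TPM in Hypoxia D1 (relative log2 2.66, SE 0.15), while the common chains Col4a2 and Col4a1 rose by 1.10 and 0.75 and the laminin chain Lamb1 by 0.63. Of 14 metalloproteinases and their inhibitors 10 rose and 1 fell, median 0.51. Mmp3, a stromelysin, had 33.1 and 24.8 TPM in Hypoxia D3, against 11.1 and 10.98 TPM in Hypoxia D1 (relative log2 1.35), and the inhibitor Timp2 had 52.1 and 42.1 TPM, against 19.8 and 25.1 TPM (1.09). The study's list for ECM deposition, which it took from an earlier report, had 36 of 48 members that rose and 3 that fell, median 0.71.

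HIF targets rose within the hypoxic step as well. Of 36 measured targets outside glycolysis 25 rose and 2 fell, with a median relative log2 of 0.48; without Hypoxia D3 replicate 2, 14 rose. P4ha2, a prolyl hydroxylase that modifies collagen, had 102 and 97.4 TPM in Hypoxia D3, against 25.3 and 29.6 TPM in Hypoxia D1 (relative log2 1.87, SE 0.12, adjusted p = 1.3e-09, limma). The collagen cross-linker Loxl2 and the glycogen branching enzyme Gbe1 rose by 1.12 and 1.10. The 2 members that fell were Vegfa, the angiogenic growth factor, with 44.9 and 46.2 TPM in Hypoxia D3 and 68.5 and 85.4 TPM in Hypoxia D1 (relative log2 -0.69, SE 0.13), and Ndrg1 at -0.63. Of 11 glycolysis genes 7 rose and 0 fell, median 0.53. Pgk1 had 1071 and 1024 TPM in Hypoxia D3, against 572 and 637 TPM in Hypoxia D1 (relative log2 0.84, SE 0.12), and Eno2 had 13.0 and 12.02 TPM, against 6.18 and 6.02 TPM (0.98). Gapdh, which is often used as a constant reference gene, had 1523 and 1473 TPM in Hypoxia D3 and 1517 and 1605 TPM in Hypoxia D1 (relative log2 -0.01, SE 0.12, adjusted p = 0.95), against 490 and 593 TPM in Normoxia D3 and 437 and 486 TPM in Normoxia D1. Its level did not separate D3 from D1 under hypoxia, but all hypoxic libraries were above all normoxic ones.

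**Figure D2:**
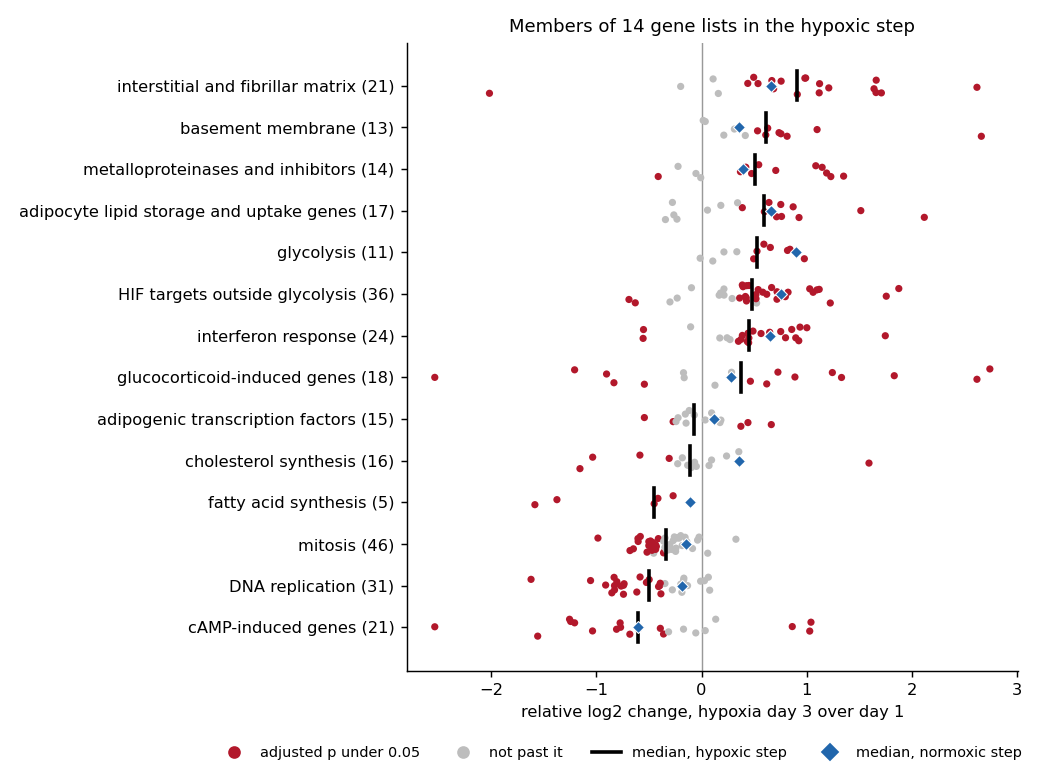
Relative log2 change in the hypoxic step (D3 over D1) for each measured member of 14 gene lists, with the number of members in brackets; dark points passed an adjusted p of 0.05 and light points did not. Black bars are the median of the hypoxic step and diamonds that of the normoxic step: matrix lists lie at 0.51 to 0.91 in the hypoxic step, cAMP-induced genes at -0.60 in both steps, and DNA replication genes at -0.50 in the hypoxic and -0.19 in the normoxic step.

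Interferon response genes also rose. Of 24 measured members of an interferon response list 18 rose and 2 fell, with a median relative log2 of 0.45. In the normoxic step 20 of the 24 rose and 2 fell, with a median of 0.65. A smaller value in the hypoxic step was seen for 18 of the 24, against 5332 of all 10318 mRNAs. The difference between the steps passed the adjusted p for 0 of them. Aim2, a sensor of cytosolic DNA, had 25.0 and 24.3 TPM in Hypoxia D3, against 5.50 and 8.61 TPM in Hypoxia D1 (relative log2 1.75, SE 0.17, adjusted p = 2.3e-07, limma). The poly(ADP-ribose) polymerase Parp14, the immunoproteasome subunits Psmb9 and Psmb8 and the tethering factor Bst2 rose by 1.00, 0.94, 0.89 and 0.92. The members that fell were Usp18, which restrains interferon signalling, and Herc6, at -0.55 and -0.56. Among 21 cytokine and NF-kB genes 9 rose and 4 fell, of which 2 fell without Hypoxia D3 replicate 2. In the main fit 42.9% of the 21 rose and 19% fell, against 20.6% and 15.6% of the named mRNAs. The cytokine Il15 had 10.6 and 8.13 TPM in Hypoxia D3, against 2.46 and 2.61 TPM in Hypoxia D1 (relative log2 1.59, SE 0.16). The chemokine Cxcl1 had 2.04 and 1.18 TPM in Hypoxia D3, against 6.23 and 7.41 TPM in Hypoxia D1 (-1.55, SE 0.15). Cxcl12, a chemokine of stromal cells, rose by 0.86 (adjusted p = 0.0030), and its adjusted p was 0.064 without Hypoxia D3 replicate 1.

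The hypoxic step was set against the normoxic step to show which changes differed under low oxygen. The 2 steps share no library. Over 10318 mRNAs their relative log2 values had a Pearson r of 0.782 and a Spearman rho of 0.71, a description across genes, which are not independent replicates. In the normoxic step 228 mRNAs (2.21%) were DE and higher at D3 and 57 (0.552%) DE and lower, and by the adjusted p alone 1457 (14.1%) rose and 798 (7.73%) fell (18.1% and 9.02% of the named). Of the DE mRNAs, 160 were DE in the same direction in both steps, which is 57.3% of the 279 of the hypoxic step and 56.1% of the 285 of the normoxic step, and 0 were DE in opposite directions. Of the 279, 276 had the same sign in the normoxic step (98.9%), against 75.8% of all mRNAs. Il1rl1, Akr1c19, Fxyd1, Cd36 and Igfbp4 had relative log2 values of 2.99, 2.80, 2.36, 2.15 and -2.65 in the normoxic step, near their hypoxic ones. The difference between the steps was then tested as 1 contrast, centred on its own median. It was DE and positive for 2 mRNAs (0.0194%) and DE and negative for 18 (0.174%), and at an adjusted p under 0.05 alone for 8 (0.0775%) and 37 (0.359%), which was 0.13% and 0.7% of the named. At an unadjusted p under 0.05 the count was 1180. With each library centred on its own median, 130 and 164 mRNAs passed the adjusted p, and with quantile normalization 229 and 262.

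**Figure D3:**
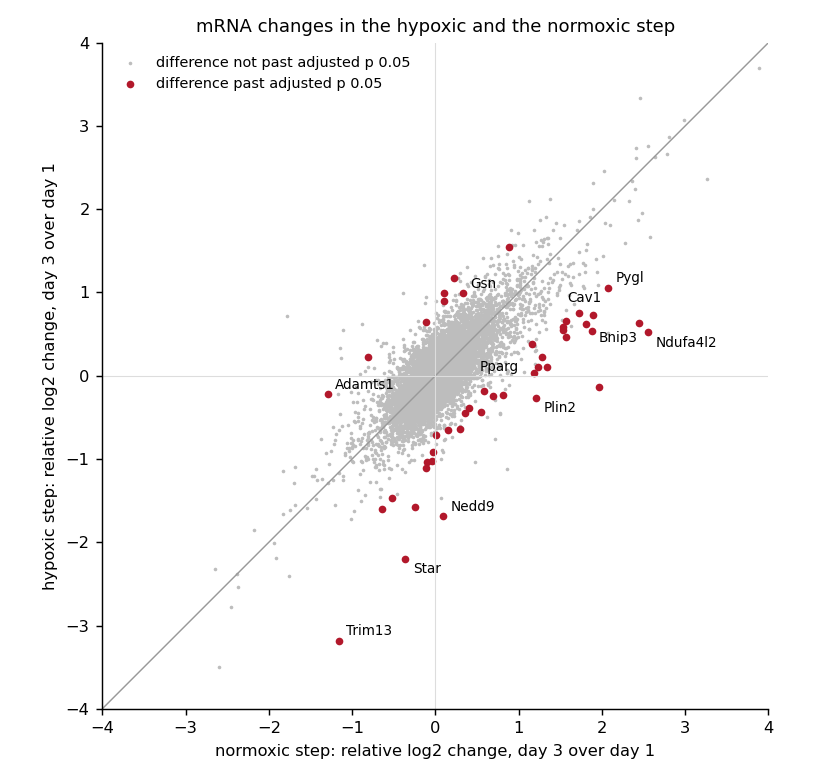
Relative log2 change of each of 10318 mRNAs in the hypoxic step (vertical axis) against the normoxic step (horizontal axis); the diagonal marks equal change. Larger dark points are the 45 mRNAs whose difference passed an adjusted p of 0.05, and the labelled ones are those given in the text: most of them lie below the diagonal, Trim13, Star and Nedd9 far down, and Ndufa4l2, Bnip3, Pparg and Plin2 to the right with small hypoxic values.

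Adipocyte genes were among those with a smaller change in the hypoxic step. Pparg had 44.1 and 35.4 TPM in Hypoxia D3 and 37.4 and 42.4 TPM in Hypoxia D1, against 51.0 and 57.6 TPM in Normoxia D3 and 27.2 and 22.6 TPM in Normoxia D1. Its relative log2 was 0.04 in the hypoxic and 1.18 in the normoxic step (difference -1.14, SE 0.21, adjusted p = 0.011, limma). The overlap was thus between the hypoxic days only, and the hypoxic D1 level was above the normoxic D1 level. Left out in turn, Hypoxia D3 replicate 2, Normoxia D3 replicate 2 and Normoxia D1 replicate 2 gave differences of -1.02, -1.12 and -1.01 with adjusted p-values of 0.070, 0.054 and 0.092. Plin2 had 174 and 187 TPM in Normoxia D3 and 82.8 and 81.2 TPM in Normoxia D1, where it rose by 1.21, and its difference was -1.47 (SE 0.15, adjusted p = 2.6e-05). The D3 levels of Plin2 under hypoxia and normoxia lay close together, and the D1 levels far apart. Cav1, the coat protein of caveolae, had 121 and 118 TPM in Hypoxia D3 and 66.4 and 79.9 TPM in Hypoxia D1, against 87.2 and 95.7 TPM in Normoxia D3 and 29.4 and 28.2 TPM in Normoxia D1 (difference -0.96, SE 0.18, adjusted p = 0.016). Cav1 lost the call without Hypoxia D3 replicate 2 (-0.97, adjusted p = 0.064), either Normoxia D3 library (-0.95 and -0.96) or either Normoxia D1 library (-0.99 and -0.93). Among the 17 genes of lipid storage and uptake, 3 had a negative difference past the adjusted p (Plin2, Cav1 and Gpd1). A positive one was found for 0. With quantile normalization 4 were negative and 2 positive, and with each library centred on its own median 3 and 1. The list median was 0.60 in the hypoxic and 0.66 in the normoxic step, and 10 of 17 rose in each step. A smaller relative log2 in the hypoxic step was seen for 12 of 17, against 5332 of all 10318 mRNAs.

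Of 36 measured HIF targets outside glycolysis, 3 had a lower value in the hypoxic step by the test of the difference and 0 a higher one. With quantile normalization 7 were lower and 1 higher, and with each library centred on its own median 6 and 1. Ndufa4l2, a mitochondrial protein strongly induced by HIF, had 162 and 188 TPM in Hypoxia D3 and 111 and 141 TPM in Hypoxia D1, against 8.96 and 18.4 TPM in Normoxia D3 and 1.38 and 1.65 TPM in Normoxia D1. Its relative log2 was 0.52 in the hypoxic (adjusted p = 0.093) and 2.56 in the normoxic step, a difference of -2.02 (SE 0.32, adjusted p = 0.0040, limma). With a pseudocount of 5 TPM the difference was -1.03 (adjusted p = 0.063). Bnip3, a mitophagy receptor, had 311 and 333 TPM in Hypoxia D3 and 204 and 256 TPM in Hypoxia D1, against 51.9 and 66.8 TPM in Normoxia D3 and 18.2 and 14.6 TPM in Normoxia D1 (difference -1.33, SE 0.20, adjusted p = 0.0028). The glycogen phosphorylase Pygl had 118 and 103 TPM in Hypoxia D3 and 47.0 and 62.4 TPM in Hypoxia D1, against 16.9 and 23.4 TPM in Normoxia D3 and 4.40 and 4.15 TPM in Normoxia D1 (difference -1.01, SE 0.21, adjusted p = 0.033). For all 3 genes the normoxic D3 level stayed below the hypoxic D1 level. Pygl lost the call with a pseudocount of 5 TPM (-0.49, adjusted p = 0.30) and without 5 of the 8 libraries in turn (Hypoxia D3 replicate 2 -0.94, Hypoxia D1 replicate 2 -0.89, Normoxia D3 replicate 2 -0.86, Normoxia D1 replicates 1 and 2 -1.04 and -0.97). Of the 36 targets, 21 had the lower value in the hypoxic step, against 5332 of all 10318 mRNAs, and 25 rose in each step. The median of the HIF target list was 0.48 in the hypoxic and 0.75 in the normoxic step, and that of glycolysis 0.53 and 0.90.

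Another group fell more in the hypoxic step, and its genes were far higher in Hypoxia D1 than in the other 3 groups compared. Trim13 had 4.51 and 5.04 TPM in Hypoxia D3 and 46.8 and 60.3 TPM in Hypoxia D1, against 3.18 and 3.64 TPM in Normoxia D3 and 10.8 and 8.27 TPM in Normoxia D1 (difference -2.01, SE 0.23, adjusted p = 7.8e-05). Nedd9 had 15.7 and 17.5 TPM in Hypoxia D3 and 55.3 and 60.0 TPM in Hypoxia D1, against 6.23 and 7.72 TPM in Normoxia D3 and 7.19 and 6.61 TPM in Normoxia D1 (difference -1.77, SE 0.19, adjusted p = 3.8e-05). Star had 2.35 and 1.66 TPM in Hypoxia D3 and 12.3 and 13.95 TPM in Hypoxia D1, against 0.960 and 1.29 TPM in Normoxia D3 and 1.83 and 1.94 TPM in Normoxia D1 (difference -1.83, SE 0.18, adjusted p = 2.6e-05). These 3 differences, like that of Plin2, passed the adjusted p in all 16 alternatives tried. In the other direction Gsn, an actin-severing protein, rose more in the hypoxic step but was low, with 1.297 and 1.23 TPM in Hypoxia D3 and 0.210 and 0.145 TPM in Hypoxia D1 (difference 0.67, SE 0.12, adjusted p = 0.013). Its call was lost with a pseudocount of 0.1 TPM (0.87, adjusted p = 0.43) and, at 0.55 to 0.68, without Hypoxia D3 replicate 2, Hypoxia D1 replicate 2, Normoxia D3 replicate 2 or either Normoxia D1 library. Adamts1, a protease of matrix proteoglycans, was the only named mRNA with a DE positive difference and was chosen after its values were seen. It had 7.52 and 6.401 TPM in Hypoxia D3 and 8.24 and 8.92 TPM in Hypoxia D1, against 1.52 and 1.59 TPM in Normoxia D3 and 6.47 and 4.91 TPM in Normoxia D1 (difference 1.08, SE 0.17, adjusted p = 0.0040).

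**Figure D4:**
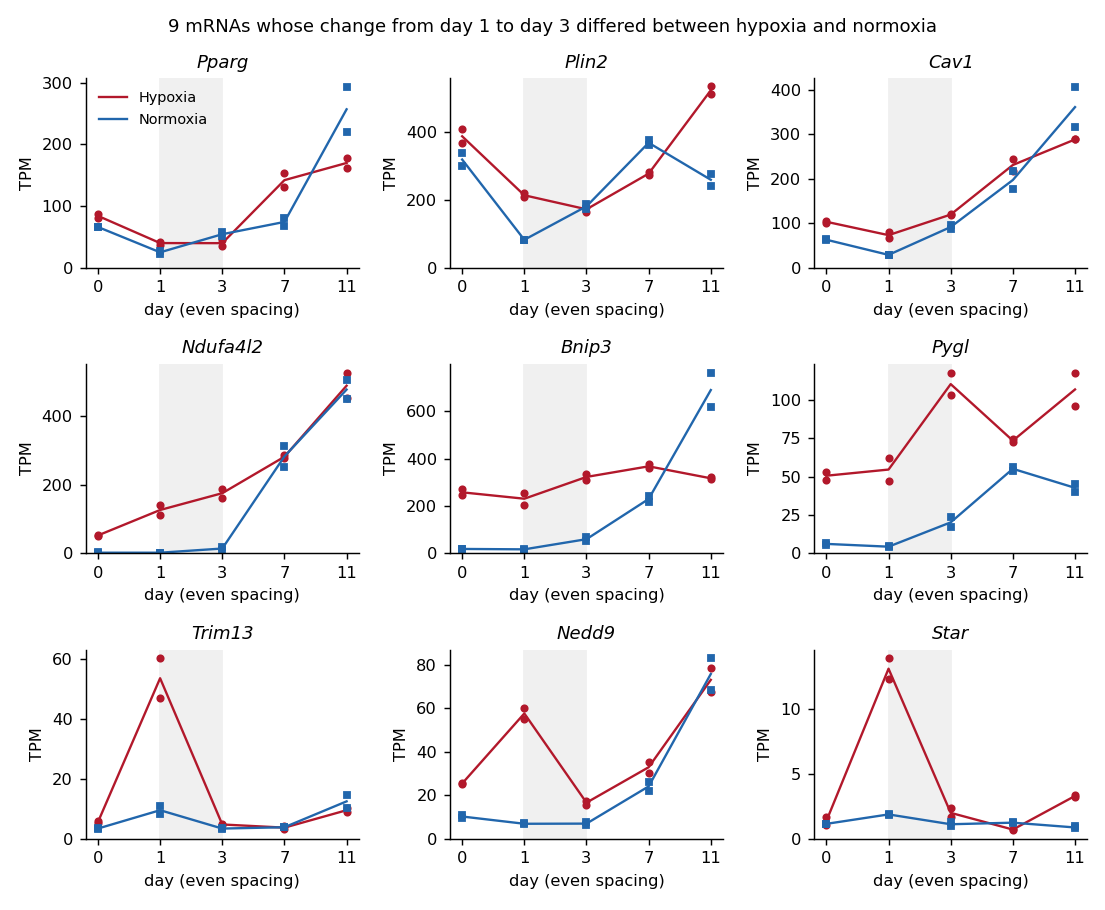
TPM at D0, D1, D3, D7 and D11 under hypoxia (circles) and normoxia (squares) for 9 mRNAs whose D1 to D3 change differed between the conditions; points are libraries, lines join group means, days are evenly spaced and the shaded span is D1 to D3. In the shaded span Pparg and Plin2 rise only under normoxia, while Trim13, Nedd9 and Star come down from a D1 level that only the hypoxic cells had.

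Cell cycle and matrix lists also had different medians in the 2 steps, with few or no single genes past the test of the difference. DNA replication genes had a median of -0.50 in the hypoxic and -0.19 in the normoxic step, where 8 of 31 fell and 1 rose, and 27 of the 31 had the lower value in the hypoxic step. Mitosis genes had -0.34 and -0.15, and 41 of 46 had the lower value in the hypoxic step. For both lists 0 genes passed the adjusted p for the difference, while 8 DNA replication and 2 mitosis genes were lower by it with quantile normalization, and 4 DNA replication genes with each library centred on its own median. The interstitial matrix list had 0.91 and 0.66, with 0 genes past that test, and 1 higher without centring, 3 with quantile normalization and 2 with each library centred on its own median. Cholesterol genes had -0.11 in the hypoxic and 0.36 in the normoxic step, where 6 of 16 rose and 0 fell, and 15 of the 16 had the lower value in the hypoxic step. By the test of the difference 1 cholesterol gene was lower, with 6 under quantile normalization and 3 with each library centred on its own median. Across all mRNAs 5332 of 10318 had the lower value in the hypoxic step.

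For the 4295 lncRNAs the change was taken on log2(TPM + 0.1), relative to a median of -0.23, and DE meant a relative log2 beyond 1 with an adjusted p under 0.01. In the hypoxic step 88 lncRNAs (2.05%) were DE and higher at D3 and 40 (0.931%) DE and lower. In the normoxic step the counts were 56 (1.3%) and 26 (0.605%), and 47 were DE in the same direction in both steps, 36.7% of the 128 of the hypoxic and 57.3% of the 82 of the normoxic step. The split of the hypoxic step changed with the centring: without it 58 were higher and 109 lower, and relative to the median of the mRNAs 60 and 83. The normoxic split without centring was 44 and 52. A fit of the 4 hypoxic libraries alone called 1. Leaving out single libraries gave 53 to 64 DE lncRNAs, with 59 and 64 without Hypoxia D3 replicates 2 and 1 and 53 and 57 without Hypoxia D1 replicates 1 and 2. Of the 128, 12 had an Ensembl gene ID, against 509 of all 4295, and the others were loci assembled by the authors. A mean of 1 TPM at D3 or D1 was reached by 76 of the 128 and by 1610 of all 4295.

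G7652 had the largest rise, with 8.94 and 8.60 TPM in Hypoxia D3, against 0.337 and 0.389 TPM in Hypoxia D1 (relative log2 4.49, SE 0.25, adjusted p = 1.4e-07, limma), and 6.23 and 5.87 TPM in Normoxia D3, against 0.226 and 0.255 TPM in Normoxia D1. It thus changed by about as much in both steps (4.33 in the normoxic one). G13912 had 8.40 and 10.1 TPM in Hypoxia D3 and 1.49 and 1.71 TPM in Hypoxia D1 (relative log2 2.68, SE 0.27). G3239 and G3181 rose by 3.34 and 3.45, and ENSCGRG00015004492, whose D3 libraries lay far apart at 0.997 and 3.38 TPM against 0.329 and 0 TPM in Hypoxia D1, by 3.46 (SE 0.72). The adjusted p of the last was 0.099 without Hypoxia D3 replicate 2, at a value of 2.58, and 0.12 without Hypoxia D1 replicate 2, at 2.31. G8135 was the most abundant lncRNA with a large fall. It had 4.69 and 4.56 TPM in Hypoxia D3, against 26.5 and 21.99 TPM in Hypoxia D1 (relative log2 -2.13, SE 0.25, adjusted p = 0.00023), and 22.3 and 21.2 TPM in Normoxia D3, against 28.3 and 33.7 TPM in Normoxia D1. Of the groups compared, only the Hypoxia D3 libraries were low, but the difference between the steps was not past the test (-1.78, adjusted p = 0.12). By D7 G8135 was low in both conditions, with means of 0.735 TPM in Hypoxia D7 and 2.16 TPM in Normoxia D7. G11848 had 0.949 and 0.922 TPM in Hypoxia D3, against 4.70 and 5.18 TPM in Hypoxia D1 (relative log2 -2.06, SE 0.16), and G3041, G15955 and G15956 fell by 1.99, 2.22 and 2.25.

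By the study's neighbour table, which pairs lncRNAs with mRNAs within 100 kb, 3 of these 10 lncRNAs have listed neighbours. Hist1h2bk, a histone gene beside G8135, stood at relative log2 -0.75 (adjusted p = 0.0043), and Zfp184, the other neighbour of G8135, at 0.19 (0.44). In the normoxic step Hist1h2bk stood at -1.01 and G8135 at -0.35 (adjusted p = 0.49 for G8135, limma). Mrgbp and Dido1, beside G11848, stood at -0.65 (adjusted p = 0.00016) and -0.27 (0.093), and Gstm5, beside G3181, at 0.45 (0.021). Histone genes have near-identical copies, so the value of Hist1h2bk is uncertain. The study singles out some lncRNAs for hypoxia against normoxia at single days, which is another comparison than D3 against D1, and 2 of them are given here. TU2105 (G934), near the corneodesmosin gene Cdsn, had 13.1 and 14.998 TPM in Hypoxia D3 and 10.6 and 13.6 TPM in Hypoxia D1 (relative log2 0.45, SE 0.21, adjusted p = 0.21), and 4.79 and 6.94 TPM in Normoxia D3 and 4.81 and 5.53 TPM in Normoxia D1, while Cdsn itself rose by 0.68 (adjusted p = 0.00049). The gene ENSCGRG00015025821 (transcript ENSCGRT00015041780), near the hypoxia-inducible lipid droplet gene Hilpda, had 1.60 and 1.44 TPM in Hypoxia D3 and 1.47 and 1.28 TPM in Hypoxia D1 (relative log2 0.36, adjusted p = 0.16). Hilpda had 511 and 483 TPM in Hypoxia D3 and 352 and 437 TPM in Hypoxia D1 (relative log2 0.39, adjusted p = 0.039), a call that was lost without centring (0.34, adjusted p = 0.066), without either Hypoxia D3 library (0.37 and 0.40) and without Hypoxia D1 replicate 1 (0.32).

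**Figure D5:**
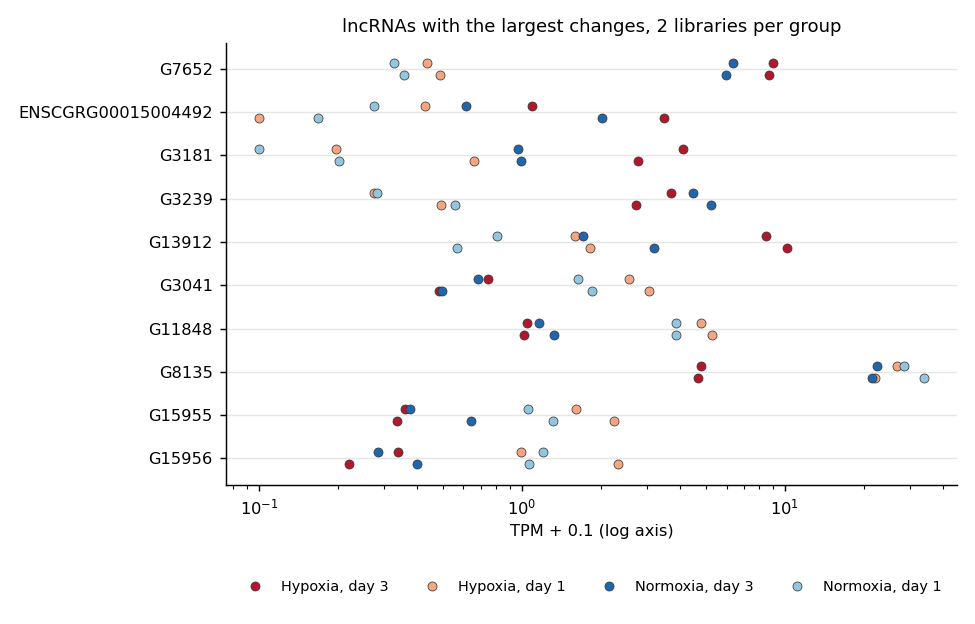
TPM plus 0.1 on a log axis for the 5 lncRNAs with the largest rise and the 5 with the largest fall in the hypoxic step, in 2 libraries each of Hypoxia D3, Hypoxia D1, Normoxia D3 and Normoxia D1. G7652 is high in all D3 libraries of both conditions. Among the groups shown, G8135 is low only in the Hypoxia D3 libraries, at 4.69 and 4.56 TPM.

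Between the steps 0 lncRNAs had a DE difference by limma, 3 had an adjusted p under 0.05 (1 positive, 0.0233%, and 2 negative, 0.0466%) and 345 an unadjusted p under 0.05; with quantile normalization 4 were DE. The 3 were G305, G1332 and G10219, and they are named because they are so few. G305 had 63.4 and 47.3 TPM in Hypoxia D3 and 34.8 and 38.1 TPM in Hypoxia D1, against 11.95 and 15.1 TPM in Normoxia D3 and 2.27 and 1.97 TPM in Normoxia D1 (difference -1.95, adjusted p = 0.032). At D3 and D1 all its hypoxic libraries lay above the normoxic ones. Its relative log2 was 0.81 in the hypoxic and 2.77 in the normoxic step. G1332 had 5.20 and 4.74 TPM in Hypoxia D3 and 5.57 and 6.22 TPM in Hypoxia D1, against 12.8 and 14.2 TPM in Normoxia D3 and 5.63 and 4.16 TPM in Normoxia D1 (difference -1.63, adjusted p = 0.033). G10219 had 7.70 and 10.5 TPM in Hypoxia D3 and 4.93 and 4.90 TPM in Hypoxia D1, against 5.96 and 5.72 TPM in Normoxia D3 and 8.31 and 8.54 TPM in Normoxia D1 (difference 1.45, adjusted p = 0.032). G1332 lost the call when any of the 8 libraries was left out, and G305 and G10219 when any but Hypoxia D3 replicate 1 was, at differences of -2.06 to -1.78 for G305, -1.83 to -1.44 for G1332 and 1.18 to 1.56 for G10219. All 3 also lost the call with the replicate number as a block (adjusted p = 0.051 each) and in the fit of the compared libraries only (adjusted p of 0.149 for G305, 0.154 for G1332 and 0.163 for G10219).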

How the data were processed

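Per the labels and the study's methods, the authors depleted ribosomal RNA (Ribo-Zero), sequenced strand-specific libraries, processed images with CASAVA 1.8.2, aligned reads with STAR 2.6.0c to the CriGri-PICR genome, assembled transcripts, separated lncRNAs by coding potential and computed the deposited TPM values with kallisto 0.44.0. They kept mRNAs above 1 TPM and lncRNAs above 0.1 TPM in both libraries of a group. TPM is relative to all transcripts of a library, so a rise of a few abundant transcripts lowers the others, and it keeps no depth; count tests could not be used.

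The mRNA values were fitted as log2(TPM + 1) and the lncRNA values as log2(TPM + 0.1) in limma 3.58.1 (R 4.3.3; eBayes with trend) with 1 mean for each of 10 groups and 10 residual degrees of freedom. Each contrast was tested relative to its median over all rows. The fit was tested on simulated data. Gene symbols came from the study's supplementary tables, which match 3858 mRNAs by ID. The members and gene lists were chosen with earlier results of these data known, so no list is independent support. Genes are named if they rank in the first 12 of either direction by size of change among DE mRNAs with a symbol, a mean of at least 10 TPM and no overlap; in the first 6 of either direction for the difference between steps; among 6 of a list with the largest change past the adjusted p; or named by the study; and lncRNAs if in the first 5 of either direction with at least 1 TPM. Some genes that meet the rules are not reported here. Genes outside these rules are named as such or as list members. Alternatives were other pseudocounts (0.1 and 5; 1 and 0.01 for lncRNAs), a filter at 5 or 1 TPM, no centring, quantile normalization, the compared libraries alone, a replicate block, leaving out each library, and, added after seeing the data, centring each library on its own median. Tables and figures used Python 3.11.15, pandas 2.3.3 and matplotlib 3.10.9.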

Additional observations from a re-analysis of the deposited data

Results flagged for a closer look

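These results had a change from D1 to D3 that differed between the hypoxic and the normoxic step by the contrast of the steps (limma, adjusted p under 0.05). All values are relative log2, hypoxic minus normoxic step. Negative differences were those of Ndufa4l2 (-2.02), Trim13 (-2.01), Star (-1.83), Nedd9 (-1.77), Plin2 (-1.47), Bnip3 (-1.33), Pparg (-1.14), Pygl (-1.01) and Cav1 (-0.96) and of the lncRNAs G305 (-1.95) and G1332 (-1.63). Positive differences were those of Adamts1 (1.08), Gsn (0.67) and the lncRNA G10219 (1.45). With 2 libraries a group, no group could be searched for a single outlying library.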

How the results depend on the processing

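Among the 279 DE mRNAs of the hypoxic step, 102 were DE with a pseudocount of 5 TPM and all 279 were among the 543 with a pseudocount of 0.1; leaving out single libraries gave 263 to 304. The normoxic step had 512 and 104 at these pseudocounts, against 285, and 277 to 308. The difference between the steps, 20, became 32 and 10 with these pseudocounts, 34 with quantile normalization, 43 in a fit of the 8 compared libraries, and 12 to 34 without single libraries (34 without Hypoxia D3 replicate 1, 12 without Normoxia D1 replicate 2). DE lncRNAs of the hypoxic step, 128, became 51 with a pseudocount of 1, 250 at an adjusted p under 0.05, 1 in a fit of the compared libraries and 53 to 64 without single libraries; those of the normoxic step, 82, became 37, 204, 1 and 34 to 47. The difference between the steps for lncRNAs, 0, became 2 with a pseudocount of 1, 3 at an adjusted p under 0.05, 4 with quantile normalization, 3 with each library centred on its own median, and 0 to 1 without single libraries. Same-numbered libraries of D3 and D1 deviated from their group means with a correlation over mRNAs of 0.016 in hypoxia and 0.073 in normoxia. Between hypoxia and normoxia it was 0.082 at D3 and -0.125 at D1. Such correlations across genes cannot tell whether same-numbered libraries shared a culture or a batch. With the replicate block 280 mRNAs and 123 lncRNAs were DE in the hypoxic step. No named gene past the adjusted p in the hypoxic step or in the difference between steps changed its sign in any alternative. Read counts per gene were not used, so the error of a low TPM is known only from the spread between 2 libraries.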

Other observations

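Clock genes also moved in the hypoxic step. Of all named mRNAs 20.6% rose and 15.6% fell, the shares to set beside each list count here and below. Of 10 measured genes 5 rose and 1 fell, with a median relative log2 of 0.22, and 3 rose without Hypoxia D1 replicate 2. Dbp, an output gene of the clock, had 9.48 and 10.3 TPM in Hypoxia D3, against 1.41 and 1.79 TPM in Hypoxia D1 (relative log2 2.12, SE 0.12, adjusted p = 2.2e-10, limma), and 5.16 and 4.18 TPM in Normoxia D3, against 1.44 and 1.20 TPM in Normoxia D1. Bhlhe41, a repressor of the clock, had 18.3 and 14.7 TPM in Hypoxia D3, against 4.98 and 6.09 TPM in Hypoxia D1 (1.47, SE 0.19), and Nfil3, which competes with Dbp for DNA sites, had 24.2 and 26.9 TPM in Hypoxia D3, against 48.1 and 45.9 TPM in Hypoxia D1 (-0.81, SE 0.11). Dbp and Nfil3 thus changed in opposite directions.

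Of 16 measured genes of the unfolded protein response and amino acid stress 5 rose and 1 fell, median 0.18, and 3 rose without Hypoxia D3 replicate 1 or Hypoxia D1 replicate 1. The cystine transporter Slc7a11 had 20.2 and 15.6 TPM in Hypoxia D3, against 9.23 and 9.67 TPM in Hypoxia D1 (relative log2 0.89, SE 0.13), and the arginine transporter Slc7a1 had 7.84 and 7.07 TPM in Hypoxia D3, against 17.2 and 16.5 TPM in Hypoxia D1 (-1.03, SE 0.13). Of 10 actin and SRF target genes 3 rose (30%) and 1 fell (10%), against 20.6% and 15.6% of the named mRNAs, median 0.04. The myosin light chain Myl9 led with 10.6 and 11.3 TPM in Hypoxia D3, against 3.37 and 3.85 TPM in Hypoxia D1 (1.43, SE 0.13). Of 10 genes of fatty acid oxidation and mitochondria only Ppargc1a rose, and 4 rose with each library centred on its own median. Of 11 histone genes 3 fell and 0 rose, and 1 fell without either Hypoxia D3 library. The study took its other lists from earlier reports. On them 14 of 24 adipokine genes rose and 1 fell, and 14 of 25 pro-inflammatory genes rose and 4 fell. Of 14 anti-inflammatory genes 3 rose (21.4%) and 4 fell (28.6%), and of 11 lipolysis genes 5 rose and 1 fell. The lipogenesis list (7 genes, 2 rose and 2 fell) had a median of 0.04 in the hypoxic and 0.81 in the normoxic step. On the hyperplasia list 1 of 11 genes rose (9.09%) and 0 fell, and on the hypertrophy list of 7 genes 2 rose and 2 fell. The adipokine list had 9 that rose and 0 that fell without Hypoxia D3 replicate 1 or Hypoxia D1 replicate 1, and the anti-inflammatory list 1 that fell without Hypoxia D3 replicate 2 and 2 without either Hypoxia D1 library.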
